A study of Mus musculus with 8 samples.

Results

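Chromatin accessibility around 9 genes of the TEAD and YAP pathway was followed from mouse embryonic fibroblasts (MEFs) through reprogramming to embryonic stem cells (ESCs). The genes were Tead1, Tead2, Tead3 and Tead4, the coactivator genes Yap1 and Wwtr1 (which encodes TAZ), Vgll3 and Vgll4, and Amotl2. They were chosen by name, 9 of 21938 annotated protein-coding genes. A gene window was the gene body with 50 kb to each side (mm10), and every peak that overlapped it by at least 1 bp was counted. The 9 windows held 147 of the 101701 open regions found in any group.

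The assay was ATAC-seq. Its transposase cuts open DNA and leaves sequencing adapters there. The 8 libraries formed 4 groups of 2, and all carried the label wildtype. One group was MEFs and one was ESCs. The other groups were MEFs infected with retroviruses for the reprogramming factors OCT4, SOX2, KLF4 and MYC (OSKM) and a FLAG control vector, cultured with vitamin C in ESC medium and collected on day 5 or day 10. The labels give the strain C57BL/6J-OG2, which carries a GFP reporter driven by Oct4 sequence, for all libraries but ESC replicate 1, which is labelled C57Bl6J. The labels place ESCs on feeder fibroblasts, whereas the methods of the study describe gelatin and 2i/L medium, so growth medium and cell type cannot be told apart between ESCs and the other groups. Infected cultures are mixtures of cells, and fewer cells of a type with an open site cannot be told apart from less opening per cell.

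The data were 1 peak list per group, with 56514 peaks for MEFs, 36219 for day 5, 35226 for day 10 and 48486 for ESCs. No list existed for a single library, so there was no spread between replicates, no comparison below has a p-value, and every difference is a difference between lists. Read depth is unknown, and a longer list also holds more weak peaks. Fibroblast markers followed the labels: a peak lay over a start site of 8 of 8 fibroblast genes in MEFs and of 1 of 8 in ESCs. Pluripotency markers did so less clearly, with 3 of 8 genes in MEFs and 5 of 8 in ESCs. Over all protein-coding genes the shares were 60.0% in MEFs and 55.8% in ESCs. Tdgf1 had a start-site peak in MEFs and on day 10 but not in ESCs. By peaks in the gene window, 7 of the 8 pluripotency genes had more in ESCs than in MEFs and 1 had fewer. Start sites of 3 blood and 3 endothelial marker genes had no peak in any list. Among 4 epithelial marker genes, Epcam had a start-site peak in MEFs and on day 10 but not in ESCs. Cdh1 had one on day 5 and in ESCs, Krt18 in ESCs alone, and Krt8 in no list.

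TEAD proteins are DNA-binding factors that need partners to act on transcription. YAP and TAZ are the best known partners. The Hippo kinase cascade phosphorylates both and keeps them out of the nucleus, and angiomotin family proteins such as AMOTL2 bind YAP directly. Vestigial-like proteins (VGLL) also bind TEADs, and VGLL4 competes with YAP for them. In fibroblasts the pathway is known for its response to stiffness and cell spreading, often jointly with AP-1 factors, and in the early embryo TEAD4 is known for its role in trophectoderm.

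The letters that TEAD factors recognise were found in the promoters of most of these genes. The TEAD core was searched as CATTCC on either strand. The RefSeq promoter table (GRCm38.p6, from 250 bases before to 50 after a start site) had entries for 7 of the 9 genes and none for Tead1 and Tead4. A match lay in a promoter of 6 of those 7 genes (Yap1, Wwtr1, Vgll3, Vgll4, Tead3 and Amotl2), and Tead2 had none. By comparison, 15.5% of 17492 coding genes in the table had a match in a promoter, and 11.6% of the 8281 coding genes with a peak over the promoter in all 4 lists. No AP-1 match (TGANTCA, either strand) lay in a promoter of the 7 genes, where 8.12% of coding genes had one. A match is a string of letters and no measurement of binding, and 7 genes are few. The stretches below surround the matches in the promoters with no annotated exon under them, read along the gene 5′ to 3′, with the TEAD core in capitals.
Yap1 promoter, chr9:8004695-8004774, minus strand: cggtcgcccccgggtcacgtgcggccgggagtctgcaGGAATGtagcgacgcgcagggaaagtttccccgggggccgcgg
Wwtr1 promoter, chr3:57576004-57576083, minus strand: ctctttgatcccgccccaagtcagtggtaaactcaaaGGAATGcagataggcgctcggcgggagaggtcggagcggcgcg
Vgll3 promoter, chr16:65815089-65815168, plus strand: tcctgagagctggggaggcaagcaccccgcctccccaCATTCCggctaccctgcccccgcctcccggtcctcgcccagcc
Vgll4 promoter, chr6:114969243-114969322, minus strand: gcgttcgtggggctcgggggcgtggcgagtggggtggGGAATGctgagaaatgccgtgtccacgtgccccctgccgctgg
Tead3 promoter, chr17:28350945-28351024, minus strand: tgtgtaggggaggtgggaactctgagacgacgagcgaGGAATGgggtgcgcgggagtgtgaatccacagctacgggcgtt

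In these 5 promoters the match began 63 to 182 bases before the start site, and in Yap1 it began 141 bases before it. The Amotl2 match began 65 bases before the start site of its RefSeq promoter (chr9:102717554-102717853) and lay over an exon of another annotated transcript. One further Tead3 promoter entry (chr17:28350551-28350850) held 3 matches. Peaks of all 4 lists covered the 300 bases of the promoters of Yap1, Wwtr1, Vgll3, Vgll4 and Amotl2 in full. The stretch in Tead3 was covered in full in MEFs and on both days. The ESC peak (chr17:28350224-28351023) covered all but its first printed base, TEAD core included, and 268 bases of that promoter.

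Some regions away from promoters held a TEAD core together with AP-1 letters. Open regions were made by merging peaks of the 4 lists within 400 bp, and were classed as MEF-specific (a peak in MEFs and none in ESCs), ESC-specific, common (both) or transient (day 5 or day 10 alone). The widest MEF-specific and the widest ESC-specific region with a TEAD core both belonged to Tead1. They are shown with 3 MEF-specific windows that held a TEAD core and an AP-1 match within 300 bp, which were chosen after the matches were seen. All are plus strand, 5′ to 3′, mm10, with both kinds of match in capitals.
Tead1, MEF-specific region upstream, chr7:112663242-112663541, plus strand: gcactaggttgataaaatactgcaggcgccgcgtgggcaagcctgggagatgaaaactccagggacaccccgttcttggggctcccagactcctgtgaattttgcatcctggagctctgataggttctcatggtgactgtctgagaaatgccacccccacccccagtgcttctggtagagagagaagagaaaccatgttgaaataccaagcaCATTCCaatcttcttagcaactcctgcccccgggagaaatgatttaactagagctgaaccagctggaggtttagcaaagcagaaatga
Tead1, ESC-specific region downstream, chr7:112907996-112908295, plus strand: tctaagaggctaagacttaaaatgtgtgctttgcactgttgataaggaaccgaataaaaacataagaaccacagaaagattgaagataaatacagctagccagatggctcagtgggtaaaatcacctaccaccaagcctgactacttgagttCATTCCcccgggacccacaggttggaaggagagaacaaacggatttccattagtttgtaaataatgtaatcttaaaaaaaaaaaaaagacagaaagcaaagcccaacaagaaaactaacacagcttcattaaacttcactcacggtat
Amotl2, MEF-specific region upstream, chr9:102673394-102673693, plus strand: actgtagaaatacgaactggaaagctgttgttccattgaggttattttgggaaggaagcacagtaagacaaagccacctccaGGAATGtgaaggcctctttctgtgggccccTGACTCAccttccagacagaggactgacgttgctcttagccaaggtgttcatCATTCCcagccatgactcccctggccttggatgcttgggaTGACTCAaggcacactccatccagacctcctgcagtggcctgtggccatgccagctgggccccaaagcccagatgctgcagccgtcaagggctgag
Vgll3, MEF-specific region upstream, chr16:65765954-65766253, plus strand: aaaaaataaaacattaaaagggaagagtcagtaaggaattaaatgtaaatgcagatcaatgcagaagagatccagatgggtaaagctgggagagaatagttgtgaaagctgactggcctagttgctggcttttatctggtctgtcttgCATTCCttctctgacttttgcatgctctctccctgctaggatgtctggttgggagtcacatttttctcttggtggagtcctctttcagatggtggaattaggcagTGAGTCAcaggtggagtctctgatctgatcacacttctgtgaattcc
Vgll3, MEF-specific region in the first intron, chr16:65818842-65819141, plus strand: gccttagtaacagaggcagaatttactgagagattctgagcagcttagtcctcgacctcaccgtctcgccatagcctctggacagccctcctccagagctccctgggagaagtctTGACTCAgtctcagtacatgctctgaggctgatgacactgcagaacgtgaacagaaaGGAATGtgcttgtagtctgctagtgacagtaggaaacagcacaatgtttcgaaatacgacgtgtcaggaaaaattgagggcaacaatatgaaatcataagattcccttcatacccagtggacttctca

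The Amotl2 window, centred on a MEF peak of 742 bp, held 2 TEAD cores and 2 AP-1 matches. In both Vgll3 windows, each in a peak that MEFs alone had, there was 1 of each. In all, 8 of the 147 windows around the 9 genes held both motifs. Of these 7 were MEF-specific (13.7% of the class, against 9.91% of all MEF-specific regions) and 1 was common. Among all regions with both motifs 70.5% were MEF-specific and 6.98% common. The 4 other MEF-specific ones lay in Wwtr1, Tead4, Tead1 and Yap1. Neither Tead1 window printed above held an AP-1 match. By score, counted from the highest, the MEF peak of the first ranked at 11.5% of its list. The ESC peak of the second ranked at 95.4%, with a −log10 q-value of 1.56, and was thus among the weakest of its list.

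Peaks were more numerous around these genes than around a typical gene, in every list. The 9 windows held 87 peaks in MEFs, 57 on day 5, 66 on day 10 and 75 in ESCs. The median per gene was 9 in MEFs (range 6 to 20), 7 on day 5 (3 to 11), 6 on day 10 (2 to 16) and 7 in ESCs (1 to 17). Over all protein-coding genes the medians were 5, 3, 3 and 4. Larger genes have larger windows, and per 100 kb of window the medians of the 9 genes were 5.21, 3.36, 4.28 and 4.54 against 3.46, 2.1, 2.34 and 3.12 for all genes. Relative to list length, the 9 windows took 15.4 of every 10000 peaks in MEFs, 15.7 on day 5, 18.7 on day 10 and 15.5 in ESCs.

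**Figure D1:**
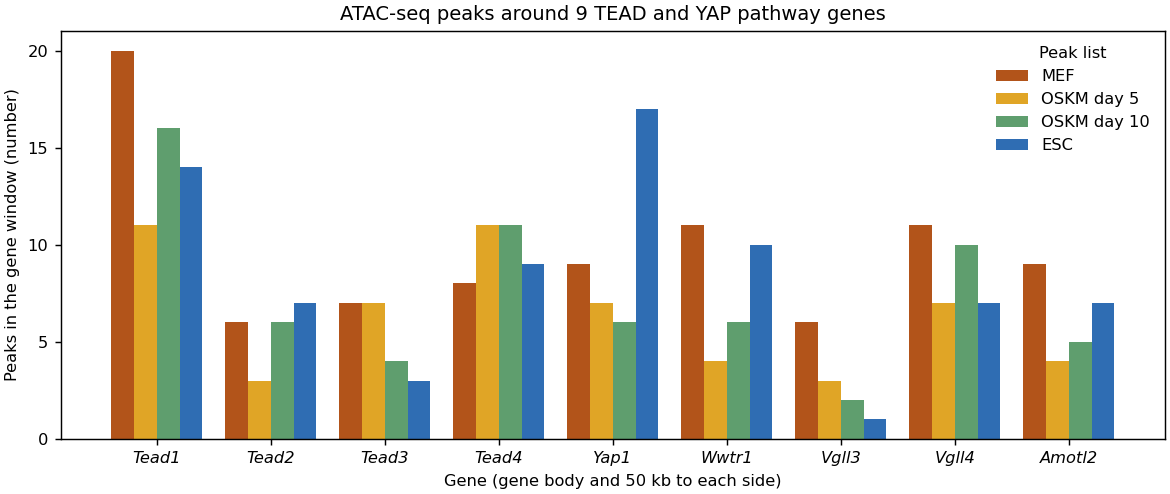
Bars give the number of ATAC-seq peaks in each gene window (gene body and 50 kb to each side) in the 4 peak lists, 1 list per group and so without error bars. Tead1 ranged from 11 to 20 peaks, Yap1 had 17 in ESCs against 6 to 9 elsewhere, and Vgll3 went from 6 in MEFs to 1 in ESCs.

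Gene by gene, MEFs and ESCs differed by the largest fold in peak number for Vgll3, Tead3 and Yap1. A gene was called where one list had at least 3 peaks and at least 2 times as many as the other. Between MEFs and ESCs, 2 of the 9 genes were called higher in MEFs, Tead3 with 7 against 3 peaks and Vgll3 with 6 against 1, where 13.2% of all protein-coding genes were called. None was called higher in ESCs (8.99% of all genes). With any difference counted, 6 of 9 genes had more peaks in MEFs than in ESCs, against 42.2% of all genes, and Tead2, Tead4 and Yap1 had fewer. The medians of the 9 genes were 9 in MEFs and 7 in ESCs, against 5 and 4 over all genes. Their windows thus held more peaks to compare, here and in the later counts by any margin for these genes. When each list was cut to its 35226 highest-scoring peaks, the length of the shortest, Tead3 and Vgll3 were still called higher in MEFs and Vgll4 joined them with 8 against 3 peaks (11.2% of all genes). Tead2 and Yap1 were then called higher in ESCs (11.5% of all genes).

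From MEFs to day 5, 4 of 9 genes were called lower: Tead2 from 6 to 3 peaks, Wwtr1 from 11 to 4, Vgll3 from 6 to 3 and Amotl2 from 9 to 4. The same call was made for 25.4% of all genes, and 7 of the 9 had fewer peaks by any margin against 63.2% of all genes. None was called higher on day 5 (2.01%), though Tead4 had 11 peaks against 8 in MEFs. The day 5 list was also the shorter one, and the part of list length in the drop was not tested. At equal list size the 9 windows held 1 peak fewer on day 5 than in MEFs, instead of 30 fewer, none of the 4 calls was made (8.55% of all genes), and Tead4 was called higher on day 5 with 10 peaks against 5 (6.24% of all genes).

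Between day 5 and day 10 only Tead2 was called, with 3 and then 6 peaks, and 4.41% of all genes were called in this direction. No member was called lower on day 10 (2.56%). By any margin 5 of the 9 had more peaks on day 10, against 33.0% of all genes, and Tead1 had the widest gap with 16 against 11. Between day 10 and ESCs only Yap1 was called, with 6 against 17 peaks, a direction in which 19.3% of all genes were called. With the lists as deposited, none of the 9 genes was called higher on day 10 (3.53%), and 4 of 9 had more peaks in ESCs by any margin against 55.8% of all genes. The Yap1 call was also made at equal list size, with 6 against 12 peaks (9.46% of all genes). At that size Tead3, with 4 against 2 peaks, and Vgll4, with 10 against 3, were called higher on day 10 than in ESCs, 2 of 9 against 11.1% of all genes. There the sum over the 9 windows turned from 9 more peaks in ESCs than on day 10 to 14 fewer.

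All 9 genes had a peak over a start site of their own in each of the 4 lists. The same was true of 60.0% of protein-coding genes in MEFs, 52.1% on day 5, 56.0% on day 10 and 55.8% in ESCs, and 46.8% had one in all 4 lists. At equal list size the ESC peak of Tead3 was not retained. Peaks over any annotated start site made up 23.0% of the members' peaks in MEFs, 33.3% on both days and 26.7% in ESCs. In the whole lists the shares were 25.1%, 31.9%, 35.8% and 26.9%. The number of peaks away from start sites ranged from 38 on day 5 to 67 in MEFs, while those over an own start site numbered 11 or 12 in every list. The lists thus differed around these genes mainly in the number of peaks away from start sites.

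**Figure D2:**
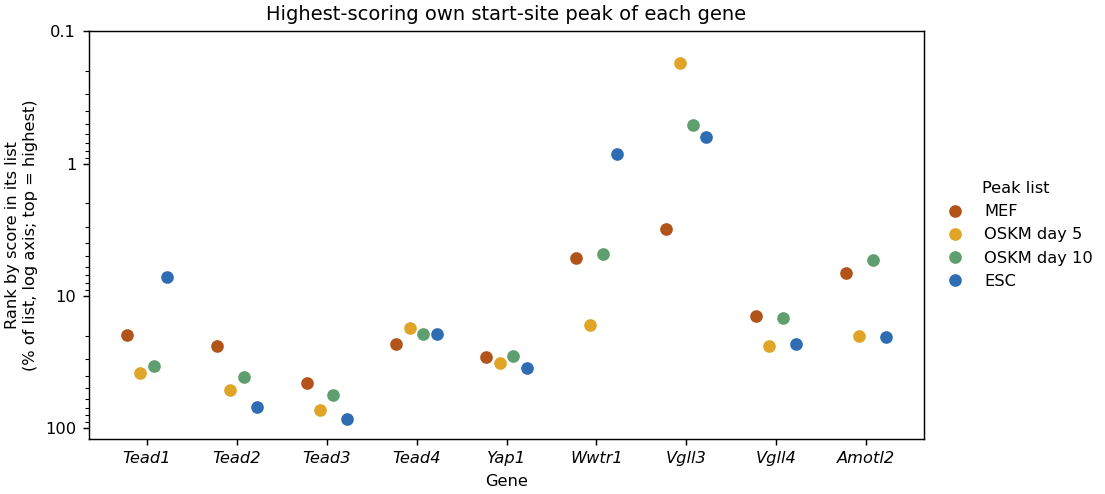
Points give the rank by score of the highest-scoring own start-site peak of each gene within its list, as a percent of the list on a log axis with the highest scores at the top, 1 point per peak list. Vgll3 lay within the top 3.11% in every list and at 0.174% on day 5, Wwtr1 reached 0.852% in ESCs, and Tead3 ranked between 45.6% and 84.9%.

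Scores of start-site peaks differed widely between the genes. The score belongs to a peak that the authors called, and a rank in percent of the list says how many peaks scored higher. The Vgll3 start-site peak ranked at 3.11% in MEFs, 0.174% on day 5, 0.508% on day 10 and 0.629% in ESCs. It was thus among the highest-scoring peaks of every list, although it was the only peak listed in the Vgll3 window in ESCs. The Wwtr1 start-site peak ranked at 5.13% in MEFs, 16.7% on day 5, 4.81% on day 10 and 0.852% in ESCs. By the highest-scoring start-site peak of each gene, Tead3 was the lowest of the 9 in all 4 lists, at 45.6%, 72.4%, 56.2% and 84.9%.

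The 4 TEAD genes had different layouts. Tead1 (ENSMUSG00000055320.17, chr7:112679318-112906807, plus strand) had the most peaks, 20 in MEFs, 11 on day 5, 16 on day 10 and 14 in ESCs. Its first start site lay under a peak of 1304 bp (ESCs) to 2353 bp (day 10) in all lists. In ESCs a further peak at chr7:112690890-112691740 lay over an internal start site 12380 bp downstream, at which a protein-coding transcript begins, and ranked at 7.21%. No other list had a peak there, and none had a peak over the cluster of start sites from 80066 bp downstream. The highest-scoring Tead1 peak in ESCs, at 3.11%, was chr7:112841590-112842239, inside an annotated exon, where a peak of 1138 bp was present on day 10 at 43.6% and none in MEFs or on day 5. In MEFs the highest-scoring peak was an intronic one at chr7:112720070-112720853 (5.82%), which was also listed on day 5 at 67.5% and on day 10 at 27.9% but not in ESCs. The widest Tead1 peak away from start sites, 2209 bp, was in MEFs at chr7:112822933-112825141.

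Tead2 (ENSMUSG00000030796.17, chr7:45215753-45233644, plus strand) lies in a gene-dense stretch, and its window held start sites of 8 other coding genes. It had 6, 3, 6 and 7 peaks in MEFs, on day 5, on day 10 and in ESCs. The edge of its start-site peak differed between lists. Edges may depend on read depth, which is unknown, and bases outside a peak were not shown to be closed. The peak was 1260 bp wide in MEFs, 635 on day 5, 1129 on day 10 and 1293 in ESCs. The MEF peak began at position 45215631, before the first annotated start site, and covered 7 of 16 annotated start sites. The day 5 peak began at 45215820 and covered 3, the day 10 peak began at 45215815 and covered 4, and the ESC peak began at 45215877 and covered 1, which lay 920 bp downstream of the first. Of the 300 bases of the RefSeq promoter (chr7:45215542-45215841) 211 were covered in MEFs, 22 on day 5, 27 on day 10 and 0 in ESCs. The highest-scoring Tead2 peak on both days lay over the start site of the neighbour Cd37, and in ESCs it was an intronic peak at chr7:45229034-45229988 that no other list had.

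Tead3 (ENSMUSG00000002249.21, chr17:28331671-28350817, minus strand) had 7 peaks in MEFs, 7 on day 5, 4 on day 10 and 3 in ESCs. Its start-site peak was 1585 bp wide in MEFs, 1293 on day 5, 1441 on day 10 and 800 in ESCs, and the same 6 of 9 start sites lay under it in each list. A peak partly over an exon of the gene, chr17:28340444-28341487 in MEFs at 27.0%, was also listed on day 5 (51.6%) and day 10 (43.6%) but not in ESCs. The highest-scoring peak of the window lay over the start site of the neighbour Fance in every list, at 5.47% in MEFs and 22.4% in ESCs. The widest peak away from start sites, 2149 bp, was upstream in MEFs at chr17:28373758-28375906.

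Tead4 (ENSMUSG00000030353.15, chr6:128224288-128300823, minus strand) had 11 peaks on each day against 8 in MEFs, with 9 in ESCs. In the lists as deposited it was the only one of the 9 genes with more peaks on both days than in MEFs. At equal list size it had 5, 10, 11 and 6 peaks in MEFs, on day 5, on day 10 and in ESCs. There Tead2 (2, 3, 6 and 6) and Yap1 (4, 7, 6 and 12) also had more on both days than in MEFs. The first start site of Tead4 was covered in all lists, at ranks from 17.5% on day 5 to 23.2% in MEFs. An intronic peak at chr6:128261469-128262276 on day 10 (31.0%) had a counterpart on day 5 (17.5%) and none in MEFs or ESCs. An upstream peak was listed in all 4 groups and scored highest on day 5, at 5.7%, against 44.0% in MEFs, 23.8% on day 10 and 14.8% in ESCs. An internal start site of Tead4 lay under a peak on day 10 alone (chr6:128275574-128276122, 78.8%), and the day 5 peak at that place stopped short of it. The highest-scoring peak of the window, between 0.664% and 2.54% in the 4 lists, lay over the start site of Gm10010 and not over Tead4.

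Yap1 (ENSMUSG00000053110.13, chr9:7931999-8004596, minus strand) had 9 peaks in MEFs, 7 on day 5, 6 on day 10 and 17 in ESCs. With lists cut to equal size it had 4, 7, 6 and 12, so the fall from MEFs to the days was not kept. Its promoter peak hardly differed, being 2088, 1591, 1646 and 1674 bp wide and ranked at 29.1%, 32.3%, 28.4% and 35.0%. The surplus in ESCs lay in introns, exons and both flanks. Of its 23 merged regions 13 were ESC-specific (56.5%, against 28.4% of all regions), 5 MEF-specific, 4 common and 1 transient. Of the 13 ESC-specific regions 12 had no peak on either day (92.3%, against 84.9% of all ESC-specific regions). The exception was an intronic region whose peak was already listed on day 5 (chr9:7995488-7996154, 25.0%), with 56.2% on day 10 and 20.8% in ESCs. A pair of ESC peaks in the downstream flank scored well, chr9:7907528-7908086 at 7.93% and chr9:7894106-7894499 at 11.3%. The other peaks that ESCs alone had ranked from 25.6% (chr9:7957740-7958423) to 99.9%. The lowest of them lay over an internal start site (chr9:7965662-7966100). The highest-scoring peak of the window lay over the start site of the neighbour Cfap300 in all 4 lists, and the widest away from start sites was the MEF peak chr9:7960536-7962319.

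Wwtr1 (ENSMUSG00000027803.14, chr3:57455649-57575910, minus strand) had 11 peaks in MEFs, 4 on day 5, 6 on day 10 and 10 in ESCs, so that MEFs and ESCs had similar numbers. Most places were not shared between MEFs and ESCs, as was the case over all open regions. Of its 17 regions 7 were MEF-specific (41.2%, against 36.4% of all regions), 6 ESC-specific (35.3% against 28.4%) and 4 common (23.5% against 19.1%). Its start-site peak was the highest-scoring of the window in every list and was 2282 bp wide in MEFs, 1209 on day 5, 1593 on day 10 and 1974 in ESCs. An intronic peak scored at 70.8% in MEFs, 58.4% on day 5 and 6.13% on day 10 (chr3:57550305-57551115), and ESCs had none there. An upstream peak was listed on day 5, day 10 and in ESCs but not in MEFs, at 30.7%, 58.8% and 56.8%. Of the MEF peaks from chr3:57501509-57502129 to chr3:57555734-57556130, 4 had no counterpart in any other list. The widest peak away from start sites was chr3:57470306-57471471 in MEFs, present in all 4 lists.

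**Figure D3:**
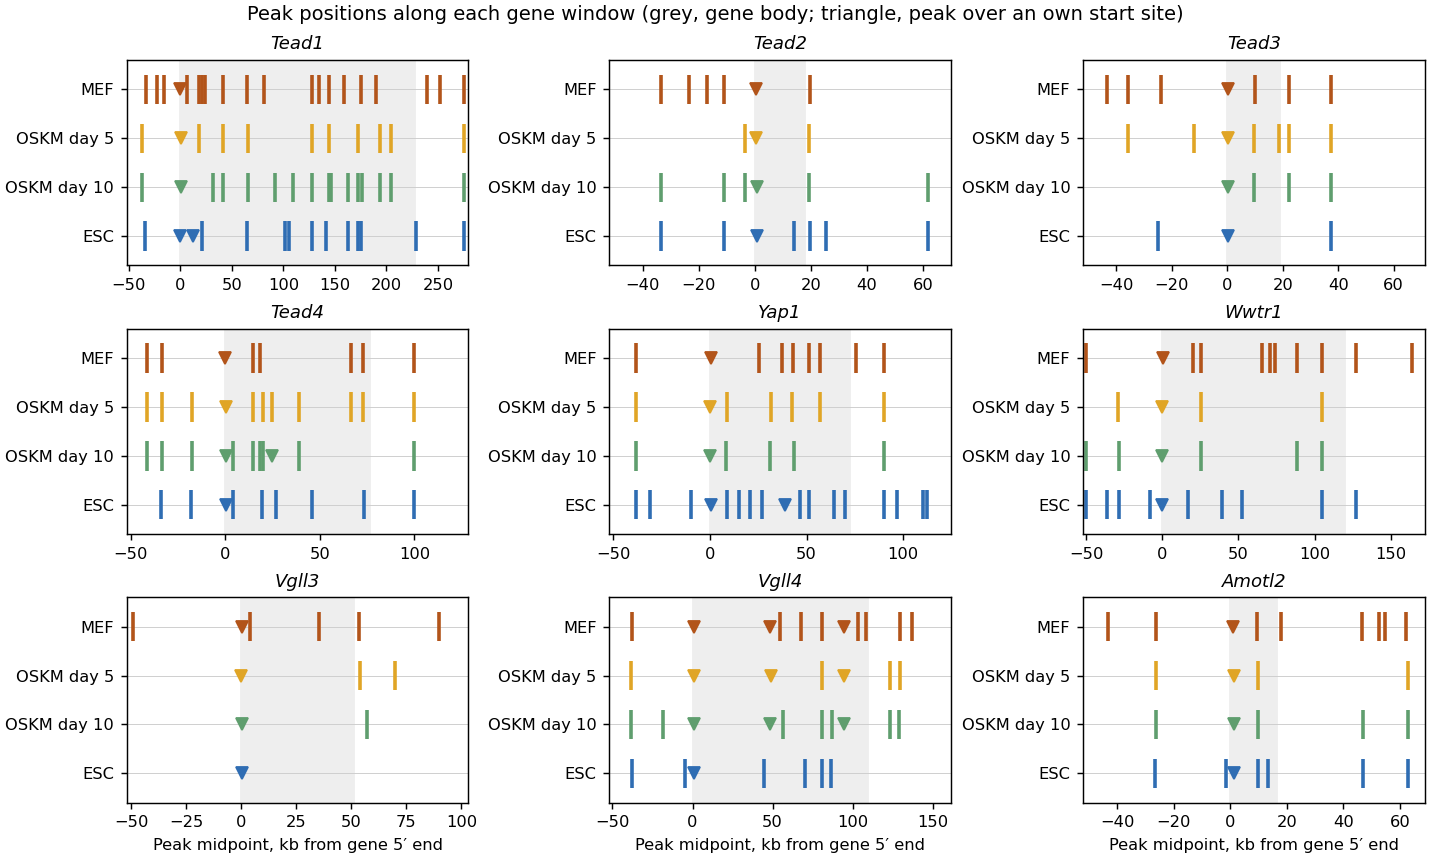
Each panel shows 1 gene, with the midpoint of every peak in kb from the 5′ end of the gene along the direction of transcription, 1 row per peak list, the gene body in grey and triangles for peaks over an own start site. Each gene has a triangle near 0 in all 4 rows, the ESC row of Yap1 holds 17 peaks and that of Vgll3 holds 1, and 2 triangles inside Vgll4 are present in all rows but that of ESCs.

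Vgll3 (ENSMUSG00000091243.2, chr16:65815257-65866368, plus strand) had 6 peaks in MEFs, 3 on day 5, 2 on day 10 and 1 in ESCs, the last at its start site. The counts did not fall by loss of MEF peaks alone. A day 5 peak (chr16:65884671-65885011, 62.9%) and a day 10 peak (chr16:65872204-65872452, 99.3%) were in no other list. No start site of another coding gene lies in its window. The start-site peak was 1277, 1001, 1152 and 1295 bp wide. Of the 5 further MEF peaks, only chr16:65868077-65869371, beyond the 3′ end and the widest away from start sites, overlapped a day 5 peak. None of the 5 overlapped a day 10 peak. Thus 4 of its 5 MEF-specific regions had no peak on either day (80%, against 81.1% of all MEF-specific regions). The intronic peak chr16:65818730-65819254 (30.0%) and the upstream peak chr16:65765895-65766313 (34.7%) carry the sequences printed above. At equal list size the counts were 5, 3, 2 and 1.

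Vgll4 (ENSMUSG00000030315.15, chr6:114860628-114969994, minus strand) had 11 peaks in MEFs, 7 on day 5, 10 on day 10 and 7 in ESCs. Peaks over its internal start sites were listed in all groups but ESCs. In MEFs and on both days 3 peaks lay over Vgll4 start sites, against 1 in ESCs. The peak at the first promoter was present in all lists, at 16.2% in MEFs, 82.8% on day 5, 28.4% on day 10 and 23.0% in ESCs. It reached the first annotated start site (position 114969994) in MEFs and ESCs but not on day 5 or day 10. A further peak lay over start sites 48173 and 48178 bp downstream of the first, and another over start sites 94887 and 94974 bp downstream. The latter was the highest-scoring Vgll4 peak in MEFs (chr6:114874238-114875889, 14.3%), on day 5 (23.9%) and on day 10 (14.7%). Neither had an ESC peak, and both regions were MEF-specific. Of these 4 internal start sites 1 belongs to a protein-coding transcript, at 48173 bp, which the narrower day 5 peak did not reach. In ESCs the highest-scoring peak was intronic (chr6:114888780-114889494, 8.15%), and the same place was listed in the other 3 groups at 27.8%, 37.6% and 15.0%.

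Amotl2 (ENSMUSG00000032531.15, chr9:102716672-102733418, plus strand) had 9 peaks in MEFs, 4 on day 5, 5 on day 10 and 7 in ESCs. Of its 11 regions 5 were common, 4 MEF-specific and 2 ESC-specific. The start-site peak ranked at 6.67% in MEFs, 20.0% on day 5, 5.35% on day 10 and 20.3% in ESCs, and was 1353 to 1673 bp wide. An intronic peak was listed in all 4 groups and was the highest-scoring of the window in ESCs (chr9:102726143-102726750, 15.8%), against 48.2% in MEFs, 54.2% on day 5 and 66.4% on day 10. The upstream MEF peak with 2 TEAD cores (chr9:102673173-102673914, 20.1%) was in no other list. The widest peak away from start sites was chr9:102777589-102779852 in MEFs, with narrower peaks there in the other lists.

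Seen as merged regions, the 9 windows were divided much as all open regions were. Of 147 regions 51 were MEF-specific (34.7%, against 36.4% of all 101701 regions), 39 ESC-specific (26.5% against 28.4%), 36 common (24.5% against 19.1%) and 21 transient (14.3% against 16.1%). The genes differed among themselves. ESC-specific regions made up 13 of 23 in Yap1 and 0 of 8 in Vgll3 and 0 of 9 in Tead3, and Vgll3 had 5 of 8 MEF-specific. Tead1 held 9 of the 21 transient regions, whereas Wwtr1 and Amotl2 had none.

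**Figure D4:**
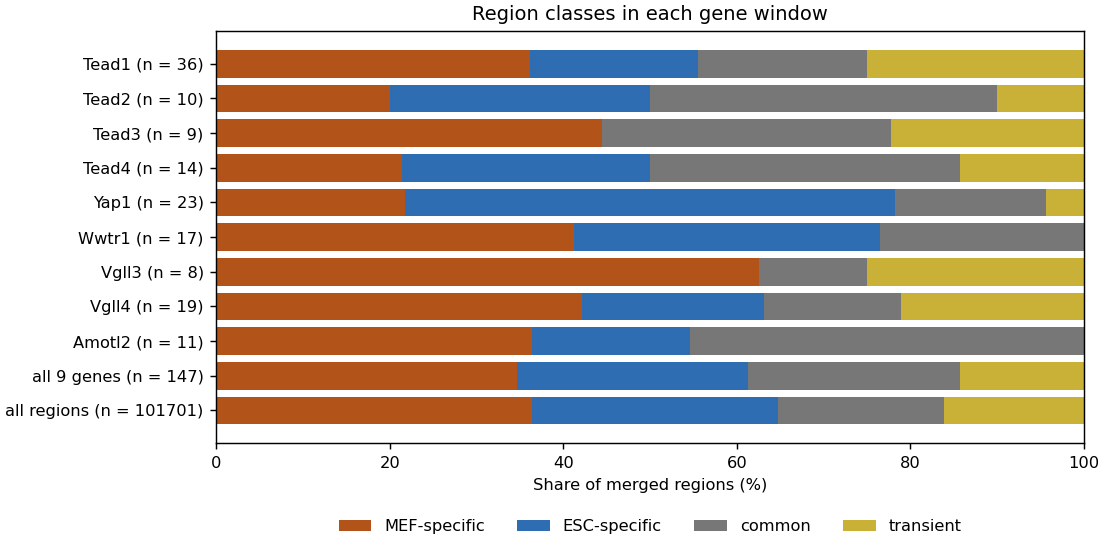
Stacked bars give the share of merged regions in each class for each gene window, for the 9 windows together and for all regions, with the number of regions in brackets. The 9 windows together (34.7% MEF-specific, 26.5% ESC-specific) are close to all regions (36.4% and 28.4%), while Yap1 and Vgll3 lie on opposite sides.

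Part of the MEF-specific regions around the 9 genes was also listed during reprogramming. On day 5, 16 of 51 had a peak (31.4%, 95% Wilson interval 20.3% to 45.0%), against 14.2% of all MEF-specific regions. On day 10 it was 12 of 51 (23.5%, 14.0% to 36.8%) against 14.8%, a value within the interval. Without regions over a start site the day 5 share was 27.7% (13 of 47, 16.9% to 41.8%) against 12.6%. With start-site regions kept and each gene left out in turn, the day 5 share lay between 27.1% and 34.2%. At equal list size 12 of 33 had a day 5 peak (36.4%, 22.2% to 53.4%) against 22.9%, and the interval then held the value of all regions. On day 10 it was 13 of 33 (39.4%, 24.7% to 56.3%) against 24.5%, just outside the interval. The intervals cover counting error alone, neighbouring regions of a gene are not independent, and the difference was not tested. The 16 regions included the 2 internal start-site regions of Vgll4, 3 regions of Tead3 and all 3 of Tead4. Among ESC-specific regions 4 of 39 had a day 5 peak (10.3% against 10.7%) and 7 had a day 10 peak (17.9% against 12.6%).

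The shares of TEAD core and AP-1 matches in these regions were close to those of all open regions. In 300 bp windows centred on the widest peak of a region, the TEAD core was found in 35 of 147 (23.8%, 17.6% to 31.3%) against 21.4% of all regions. AP-1 letters were found in 31 (21.1%, 15.3% to 28.4%) against 21.1%. In MEF-specific regions the AP-1 share was 20 of 51 (39.2%) against 39.5%, and in ESC-specific ones 5 of 39 (12.8%) against 9.29%. The TEAD core did not follow class in the same way, with 15 of 51 MEF-specific (29.4% against 25.2%) and 9 of 39 ESC-specific regions (23.1% against 23.4%). The octamer of OCT4 (ATGCAAAT) was in 0 of 51 MEF-specific windows (1.86% of all) and in 2 of 39 ESC-specific ones (5.13% against 4.47%). Among the genes, Tead1 had the TEAD core in 14 of 36 windows, Vgll4 in 7 of 19 and Tead2 in 0 of 10.

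**Figure D5:**
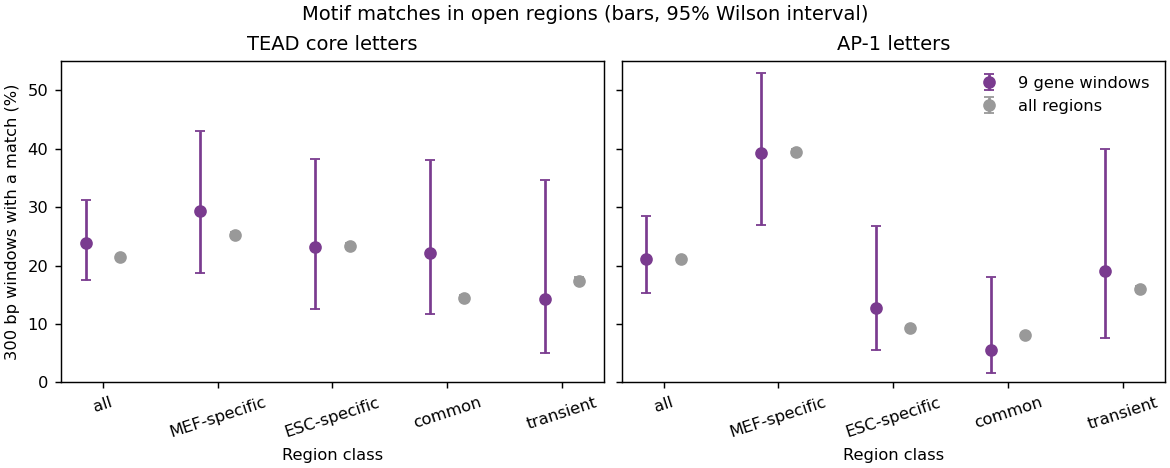
Points give the percent of 300 bp windows with the TEAD core (left) or AP-1 letters (right) by region class, for the 9 gene windows and for all regions, with 95% Wilson intervals for counting error. In every class the interval of the 9 windows holds the value of all regions, and AP-1 letters are at 39.2% in MEF-specific and 12.8% in ESC-specific regions of the 9 windows.

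Other genes of the pathway were read from 2 lists. Among 24 upstream Hippo genes (kinases, their adaptors and further angiomotin and vestigial-like genes) the windows held 189 peaks in MEFs, 110 on day 5, 114 on day 10 and 179 in ESCs. By the same call 5 of 24 were higher in MEFs than in ESCs (13.2% of all genes) and 0 higher in ESCs (8.99% of all genes). They were Sav1 (3 against 1), an adaptor of the kinases, Map4k4 (15 against 7), a kinase, Amot (5 against 1), a relative of Amotl2, Vgll2 (4 against 2), and Fat4 (9 against 2), a large cadherin. By any margin, these 5 included, 10 of the 24 had more peaks in MEFs than in ESCs (42.2% of all genes), and 11 had more in ESCs. Among 19 genes used as readouts of YAP and TAZ activity the windows held 198, 117, 109 and 150 peaks. Here 15 of 19 had more peaks in MEFs than in ESCs, against 42.2% of all genes, and 4 had fewer. The medians were 10 in MEFs and 7 in ESCs, against 5 and 4 over all genes, so these windows held more peaks to compare. The MEF list was also the longer one, and no equal-list values are given for the comparison lists. For the 9 genes the MEF surplus over ESCs was 12 peaks as deposited and 2 at equal list size. Axl (10 against 5), F3 (7 against 3) and Rbms3 (32 against 8) were called higher in MEFs, 3 of 19 against 13.2% of all genes, and Igfbp3 (2 against 4) was called higher in ESCs, 1 of 19 against 8.99%. Start-site peaks were present for 18, 16, 16 and 15 of the 19 readout genes in MEFs, on day 5, on day 10 and in ESCs, against 60.0%, 52.1%, 56.0% and 55.8% of all genes. Ankrd1, a much used readout, had one in MEFs alone, while Ccn1 and Ccn2 had one in every list. Lats2, Amotl1 and Ptpn14 belong to both lists.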

How the data were processed

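The 9 genes, both comparison lists and the markers were chosen with earlier results of these data known. Groups were taken from sample titles. The authors mapped reads to mm10 with Bowtie2 (2.2.0 in the submitters' processing notes), filtered on mapping quality and dropped mitochondrial reads. The ATAC-seq peak caller is not given in the sources used here. The deposited lists, 1 per group, give every peak a score, an enrichment ratio and −log10 p- and q-values. In all but 4 peaks the score equalled the −log10 q-value multiplied by 10 and cut to a whole number. Names of the lists and peaks point to replicate 1 peaks cut to the part shared with replicate 2, which is stated nowhere. The score would then belong to the whole replicate 1 peak. No column belonged to other samples (0 columns). Depth is unknown.

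Genes, exons and start sites came from GENCODE mouse release 21, and sequences from RefSeq GRCm38.p6, whose 10 promoter entries for 7 of the genes equalled the genome. Counting used Python 3.11.15, pandas 2.3.3 and numpy 2.4.6, tested on simulated peaks. No test was made, since each group has 1 list. Named were all 9 genes, their start-site peaks, their widest peak away from start sites and their highest-scoring peaks, and genes of the comparison lists with a call between MEFs and ESCs. Ankrd1, Ccn1, Ccn2 and the other peaks described were chosen after their values were seen. Alternatives were the window size, equal list size, a q-value limit, the merging distance, the start-site definition and the motif search.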

Additional observations from a re-analysis of the deposited data

How the results depend on the processing

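No paired analysis was possible because each group had 1 peak list with no column per library. Leaving out each replicate was not run for the same reason. Of the 95 values recomputed under an alternative, 77 stayed within 1.5 times the reported count or within its interval, 17 moved and 1 changed sign. With 10 kb to each side of the genes the windows held 55 MEF peaks, 3 more than ESCs, the day 5 minus MEF difference was -16, and 21 regions were common. With 100 kb they held 133 MEF peaks, 29 more than ESCs, the day 5 minus MEF difference was -52, and 79 regions were MEF-specific. At equal list size MEF peaks numbered 54, 2 more than in ESCs, the day 5 minus MEF difference was -1, the ESC minus day 10 difference turned to -14, and 33 regions were MEF-specific and 21 common. With a −log10 q-value of at least 2, ESCs had 3 more peaks than day 10. Searching whole regions gave a TEAD core in 48.3% and AP-1 letters in 35.4% of regions, and the longer TEAD sequence ACATTCCA gave 2.72%. All 9 genes had an own start-site peak under each alternative tried, except that 8 had one in ESCs at equal list size, where Tead3 had none. The equal-list calls of single genes, the day shares without start sites or without each gene, and the promoter shares of coding genes were added after seeing the data. With 1 list per group and no read depth, a missing peak is not a closed site, and no difference between lists could be set against replicate error.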
